A study of Mus musculus with 2 samples.

Results

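Mir219a-2, Mir338, Mir219a-1 and Mir219b are microRNA genes of the miR-219 and miR-338 families, which are known from the oligodendrocyte lineage. These 4 genes were taken by their GENCODE names from the 2202 microRNA genes counted in the left cerebral cortex of female mice aged 25 days. The mice were B6CASTF1/J animals, an F1 hybrid in which the CAST parent descends from wild-caught mice, and the labels name no treatment. The data form a single group of 2 libraries of RNA below 30 nt, so no condition was compared. The labels number the animals 04 (replicate 2) and 03 (replicate 1), although both libraries carry the same donor record. The SDs therefore measure only the spread between these libraries, which may be technical.

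A microRNA gene is transcribed as a hairpin, from which short mature RNAs are cut. A mature microRNA guides silencing complexes to messenger RNAs, mainly through its seed, bases 2 to 8 from its 5′ end. Oligodendrocytes wrap axons in myelin, and in the mouse the miR-219 and miR-338 microRNAs accumulate as precursors stop dividing and mature. miR-219 is known to repress factors that hold the precursor state, such as the growth factor receptor Pdgfra and the transcription factor Sox6, and miR-338 is known to act on Sox6 and Hes5.

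The mature sequences are given first because 2 of the genes encode the same one, and because hairpins annotated on the opposite strand decide which counts can be used. Capitals mark the seed in each mature sequence, written 5′ to 3′ from RefSeq on GRCm38.p6.
miR-219a-5p (Mir219a-2 and Mir219a-1): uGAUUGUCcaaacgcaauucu
miR-219a-1-3p (Mir219a-1): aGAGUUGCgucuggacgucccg
miR-219b-5p (Mir219b): aGAUGUCCagccacaauucucg
miR-219b-3p (Mir219b): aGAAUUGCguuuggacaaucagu
miR-338-5p (Mir338): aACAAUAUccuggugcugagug
miR-338-3p (Mir338): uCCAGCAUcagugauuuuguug

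miR-219a-5p was the only one of these sequences held by 2 of the 1005 RefSeq hairpins, those of Mir219a-1 and Mir219a-2. No mature microRNA of another gene in that table had the seed of a sequence printed above. The hairpins of Mir219a-2 and Mir219a-1 had 22 nt as their longest shared stretch, cugauuguccaaacgcaauucu, which is miR-219a-5p with 1 further base at its 5′ end. The hairpins below differ outside that stretch, and capitals mark the mature sequences of the RefSeq table. That table lists only miR-219a-5p for Mir219a-2, so the other arm of this hairpin is left unmarked.
Mir219a-2 hairpin: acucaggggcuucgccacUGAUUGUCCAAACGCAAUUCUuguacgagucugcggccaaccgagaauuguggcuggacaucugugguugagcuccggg
Mir219a-1 hairpin: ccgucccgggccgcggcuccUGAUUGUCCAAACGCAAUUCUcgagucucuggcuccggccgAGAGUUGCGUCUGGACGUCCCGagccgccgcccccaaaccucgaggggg
Mir219b hairpin: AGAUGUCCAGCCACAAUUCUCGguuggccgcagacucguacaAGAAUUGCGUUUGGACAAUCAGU
Mir338 hairpin: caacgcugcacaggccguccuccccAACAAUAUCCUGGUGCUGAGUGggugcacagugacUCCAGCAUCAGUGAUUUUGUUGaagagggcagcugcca

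On mm10, Mir219a-2 (ENSMUSG00000065485.1) lies on the minus strand at chr2:29845631-29845727. It overlapped no annotated gene on its own strand, and its nearest neighbour was Urm1, a ubiquitin-like modifier gene that ends 628 nt away on the plus strand. Mir219b (ENSMUSG00000105010.1) is annotated on the plus strand at chr2:29845647-29845711, inside Mir219a-2. All 65 nt of the Mir219b hairpin are the reverse complement of the Mir219a-2 hairpin.

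Mir338 (ENSMUSG00000065600.1) lies on the minus strand at chr11:120014765-120014862, in an intron of the kinase gene Aatk on the same strand. Mir3065, on the plus strand at chr11:120014767-120014853, covers 87 of the 98 nt of Mir338. Mir219a-1 (ENSMUSG00000065555.1) lies on the minus strand at chr17:34024983-34025092, 302 nt from the Polycomb gene Ring1, and overlaps an exon of the noncoding gene Gm26940 on its own strand. Mir219c lies opposite to it at chr17:34025012-34025071. Each of the 3 loci therefore has 1 annotated hairpin on the minus strand and 1 on the plus strand.

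The deposited counts join both arms of a hairpin, so they refer to genes and not to mature microRNAs. Levels are in CPM, counts per 1000000 own-strand microRNA gene counts, and those gene counts totalled 3209361 (replicate 2) and 3017058 (replicate 1). With 3 counts as the limit for a gene without reads, the floor was 0.935 CPM in the first of these libraries and 0.994 CPM in the second. Each read is a whole small RNA rather than a fragment, so counts were not divided by length, and the Mir219a-2 and Mir338 hairpins differ by 1 nt. Reads placed at several loci were 39.0% of all reads in replicate 2 and 40.3% in replicate 1, and these stand outside the gene counts.

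Mir219a-2 supplied nearly all counts of the miR-219 genes. It had 10453 counts in replicate 2 and 7154 counts in replicate 1, which is 3257 CPM (95% Poisson interval 3195 to 3320) and 2371 CPM (2317 to 2427). Both libraries held it above 1000 CPM. Its mean level was 2814 ± 626 CPM (SD, n = 2), or 0.281% of microRNA gene counts, at rank 55 of 2202. Its rank was 49 in replicate 2 and 63 in replicate 1. The genes next to it in order, Mir100 at 2986 ± 590 CPM above it and Mir320 at 2607 ± 240 CPM below it, did not differ from it beyond their spread.

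Mir338 had 7586 counts in replicate 2 and 3890 counts in replicate 1. These are 2364 CPM (95% Poisson interval 2311 to 2418) and 1289 CPM (1249 to 1331). Replicate 2 was the higher library for both leading genes. The mean level of Mir338 was 1827 ± 760 CPM (SD, n = 2), or 0.183% of counts, at rank 75. Mir484 at 1840 ± 739 CPM above it and Mirlet7c-2 at 1814 ± 54.2 CPM below it were within its spread.

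Mir219a-1, the second source of miR-219a-5p, had 17 counts in replicate 2 and 3 counts in replicate 1, or 5.30 and 0.994 CPM. Its count in replicate 1 was at the floor. Its mean level was 3.15 ± 3.04 CPM (SD, n = 2), at rank 421. Mir219a-1 supplied 0.162% of the counts of Mir219a-1 and Mir219a-2 together in replicate 2 (exact 95% interval 0.0946 to 0.260) and 0.0419% in replicate 1 (0.00865 to 0.122). Reads of miR-219a-5p that stop within the shared stretch match both hairpins. How many of them are among the reads placed at several loci was not tested, so the split between the genes rests on reads that were placed at 1 locus. Which arm of a hairpin those reads came from was not tested either. The counts of Mir219a-2 and Mir219a-1 are therefore not a measure of miR-219a-5p.

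Mir219b had 0 counts in replicate 2 and 1 count in replicate 1, both at or under the floor. Its rank was 682. Of the 4 genes, 2 reached 10 counts in each library, which is how detection was defined, against 17.9% of all 2202 genes. The 4 genes together held 0.563% of counts in replicate 2 and 0.366% in replicate 1, a mean of 0.464% ± 0.139 (SD, n = 2). In bulk tissue, fewer cells of a type and less RNA per cell cannot be told apart.

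**Figure D1:**
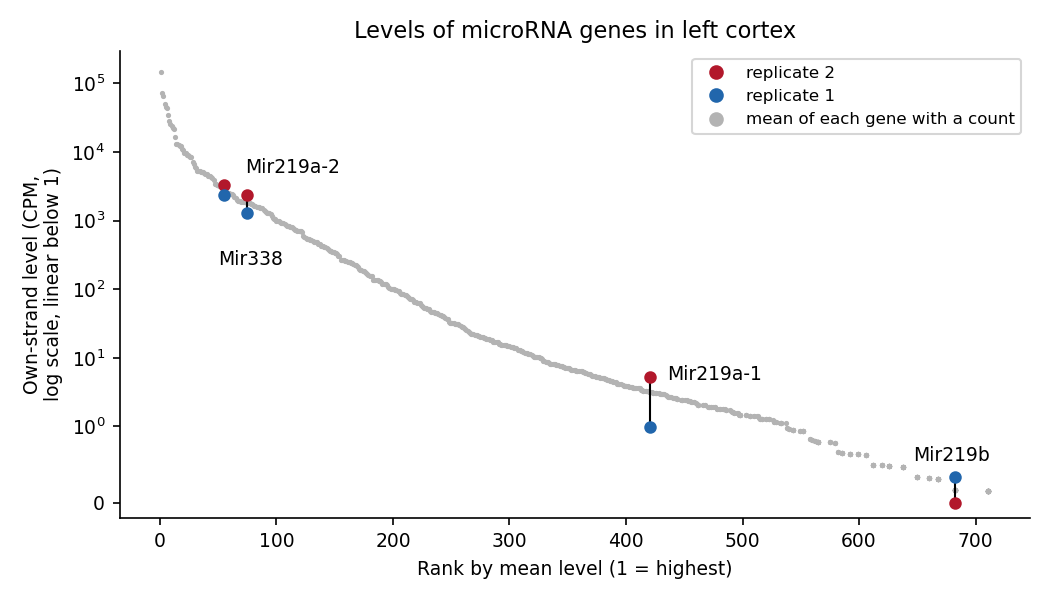
Own-strand level in CPM (log scale, linear below 1) against the rank of the mean level, for each microRNA gene with at least 1 count (gray) and for the 4 genes in each library (red, replicate 2, and blue, replicate 1, joined by a line). Mir219a-2 at rank 55 and Mir338 at rank 75 stand far above Mir219a-1 at rank 421, and Mir219b lies near 0.

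The strand columns decide whether these genes are seen at all. In the either-strand column, where a read over hairpins on both strands is assigned to none, Mir338 had 0 counts in both libraries. Mir219a-2 had 1 count in replicate 2 and 0 in replicate 1, against 10453 and 7154 on its own strand. Mir219a-1 had 0 and 1 either-strand counts, against 17 and 3 on its own strand. The either-strand column thus held 2 of the 29104 own-strand counts of the 4 genes.

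The reads in question lie over the shared span of each pair. Counted on the strand opposite to Mir219b, reads numbered 10452 in replicate 2 and 7154 in replicate 1, so all but 1 of the reads of Mir219a-2 also overlapped Mir219b. Reads opposite to Mir3065 numbered 7586 and 3890, the same as the own-strand counts of Mir338. Reads opposite to Mir219c numbered 17 in replicate 2 and 2 in replicate 1, against 17 and 3 for Mir219a-1.

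By strand, counts at each locus came from the minus strand hairpin. Mir219b, the plus strand hairpin within Mir219a-2, gave 0 of 10453 reads of the pair in replicate 2 (exact 95% interval 0 to 0.0353%). In replicate 1 it gave 1 of 7155 reads, or 0.0140% (0.000354 to 0.0778). Mir3065 gave 0 of 7586 reads of its pair with Mir338 in replicate 2 (exact 95% interval 0 to 0.0486%). In replicate 1 it gave 4 of 3894 reads, or 0.103% (0.0280 to 0.263). Mir219c had 0 counts in both libraries. The sequence of miR-3065-5p, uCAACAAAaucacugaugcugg, is the reverse complement of Mir338 over its whole length, so strand alone separates the pair.

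**Figure D2:**
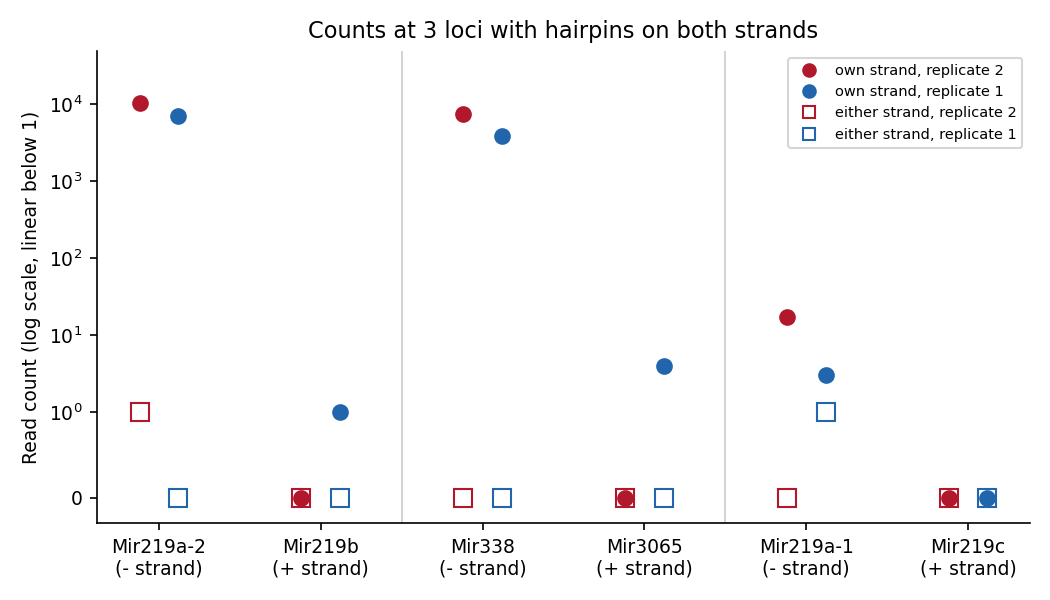
Read counts (log scale, linear below 1) of the minus strand and plus strand hairpins at 3 loci, as own-strand counts (filled circles) and either-strand counts (open squares) in replicate 2 (red) and replicate 1 (blue). Mir219a-2 and Mir338 have 3890 to 10453 own-strand counts and 1 or 0 either-strand counts, and the plus strand hairpins have at most 4 counts.

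Such a loss was uncommon over all genes and usual for hairpins that overlap on opposite strands. Of the 496 genes with at least 10 own-strand counts over both libraries, 27 (5.44%) kept under 10% of them in the either-strand column, among them 3 of the 3 genes described here that reached 10 counts. In 23 genes (4.64%), Mir338 included, the either-strand count was 0 in both libraries, which Mir219a-2 and Mir219a-1 missed by 1 read each. The 27 genes were all of those reaching 10 counts that have a microRNA hairpin annotated opposite to them, and 0 of the 469 genes without one kept under 10%.

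Of 32 hairpin pairs that overlap on opposite strands, 26 had at least 10 counts in total. The weaker hairpin gave a median of 0% of the counts of a pair, and its highest share was 17.4%. In 15 of 15 pairs with at least 1000 counts, those of Mir219a-2 and Mir338 included, its share was under 1%. The pair of Mir219a-1 and Mir219c had 20 reads, too few to show so low a share: 0 of 17 reads in replicate 2 allows up to 17.6%. One-sided use of a locus was therefore not shown to be particular to miR-219 and miR-338. Genes in these pairs held 6.71% of own-strand counts in replicate 2 and 6.58% in replicate 1.

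**Figure D3:**
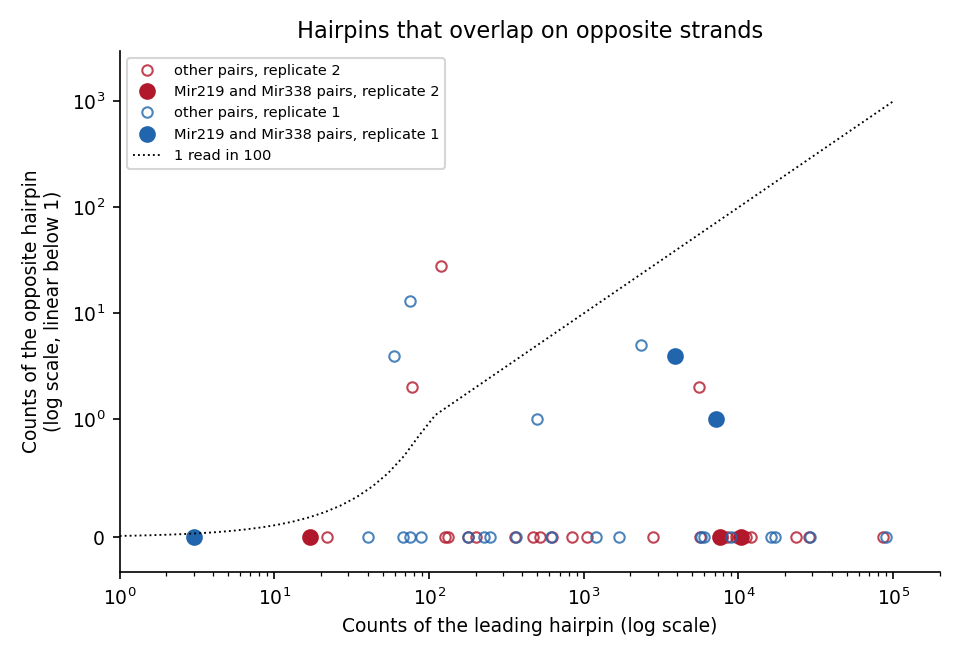
Counts of the hairpin with fewer counts (log scale, linear below 1) against counts of the hairpin with more counts (log scale), for 26 pairs on opposite strands in replicate 2 (red) and replicate 1 (blue). The pairs of Mir219a-2, Mir338 and Mir219a-1 are filled, and the dotted line marks 1 read in 100. Most pairs, the filled ones included, have 0 counts for the second hairpin or lie below the dotted line.

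Mir219a-2 exceeded Mir338 in each library, by an amount that differed between them. The ratio of Mir219a-2 to Mir338 counts was 1.38 in replicate 2 (exact 95% counting interval 1.34 to 1.42) and 1.84 in replicate 1 (1.77 to 1.91). These intervals do not overlap, so the ratio moved by more than counting noise. On the log2 scale the ratio was 0.67 ± 0.29 (SD, n = 2). This ratio uses no library size, so it does not depend on scaling between libraries. It does depend on read placement: miR-219a-5p is held by both Mir219a hairpins, so its reads placed at several loci are missing from Mir219a-2, while each Mir338 sequence is held by a single hairpin. How far this lowers the ratio was not tested.

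The libraries were then compared with each other after TMM scaling, gene by gene, with an exact binomial test (two-sided, Benjamini-Hochberg adjusted over 496 genes). The test sets 2 libraries against counting noise and says nothing about a condition. Mir338 was higher in replicate 2, by 1.56-fold (log2 ratio 0.65, 95% counting interval 0.59 to 0.70, exact binomial adjusted p = 1.09e-117). Mir219a-2 was 1.17-fold higher in replicate 2 (log2 ratio 0.23, interval 0.19 to 0.27, exact binomial adjusted p = 1.09e-24).

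Mir219a-1, with 17 and 3 counts, had a log2 ratio of 2.18 (interval 0.40 to 4.60, exact binomial adjusted p = 0.0215). It reached the filter only through its count in replicate 2, the library where it is high, so its direction is given as a description. Mir219b had too few counts to be tested. Mir219a-2 and Mir338, which passed the filter in each library, were both higher in replicate 2. Over all 496 genes, 56.5% were called, 25.8% as higher in replicate 2 and 30.6% as higher in replicate 1, which is 128 and 152 genes. With library totals in place of TMM, 180 genes were higher in replicate 2 and 102 in replicate 1. TMM moved log2 ratios by -0.23 relative to library totals, and Mir219a-2 and Mir338 were higher in replicate 2 under both and with DESeq2 size factors.

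Set beside other genes after TMM scaling, the differences of Mir338 and Mir219a-2 were of ordinary size. Among the 231 genes that averaged 50 CPM or more, the median absolute log2 ratio was 0.42. Mir338 had a larger absolute ratio than 69.3% of them, and Mir219a-2 a larger one than 22.1%. The biological coefficient of variation over all genes tested, as edgeR names it, was 36.7%. Like the SDs, it measures only the spread between these libraries, which may be technical.

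**Figure D4:**
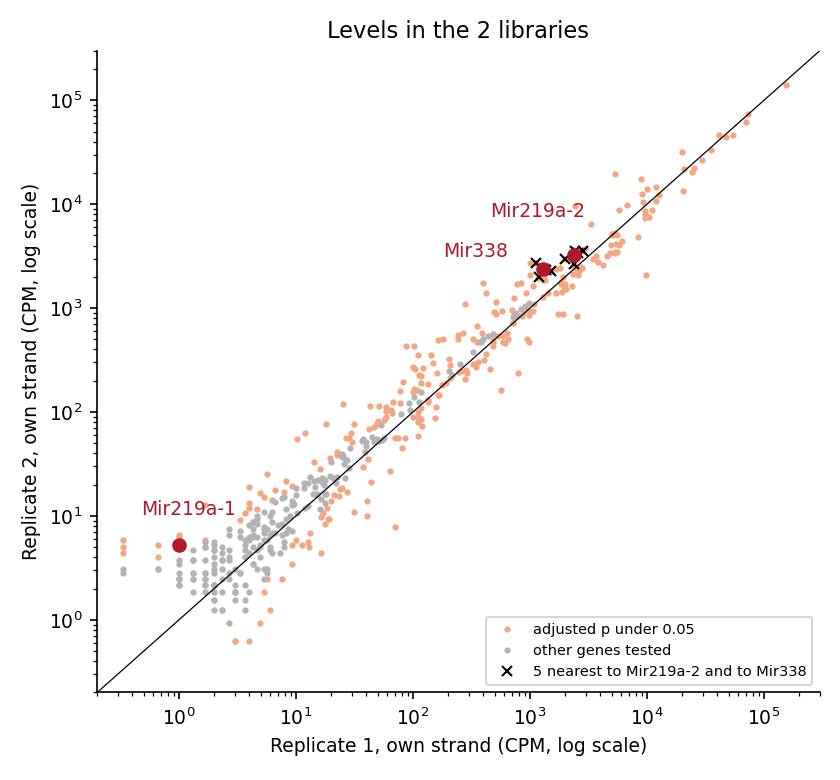
Own-strand level in replicate 2 against replicate 1 (CPM, both log scales) for tested genes with a count in both libraries. Orange genes passed the exact binomial test at an adjusted p under 0.05, gray genes did not, and the line marks equal CPM. Mir219a-2, Mir338 and Mir219a-1 (red) lie above the line, and crosses mark the 5 genes nearest to Mir219a-2 and the 5 nearest to Mir338.

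Genes alike in level were sought by the distance of log2(CPM + 1) over the 2 libraries, among 395 detected genes. The 5 nearest to Mir219a-2 were Mir485, Mir100, Mir409, Mir128-2 and Mir337, at distances of 0.13 to 0.30 log2 units. Mir485 had 3548 CPM in replicate 2 and 2435 CPM in replicate 1, and Mir100 had 3403 and 2569 CPM. The 5 nearest to Mir338 were Mir484, Mir874, Mir369, Mir1983 and Mir222, at 0.031 to 0.28 log2 units. Mir484 had 2362 CPM in replicate 2 and 1317 CPM in replicate 1, both within the Poisson intervals of Mir338. With 2 libraries, likeness reflects the level and the step between libraries and no wider pattern.

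Other microRNA genes known from oligodendrocyte differentiation were also abundant, apart from Mir32. Mir23b and Mir23a, whose microRNAs promote myelin formation by restraining lamin B1 and which astrocytes also express, stood at 22192 ± 2686 and 8833 ± 1029 CPM. Mir138-1 and Mir138-2, from which the differentiation-linked miR-138 is made, stood at 5122 ± 13.4 and 2602 ± 195 CPM, without reads of the 1 mature sequence they share that were placed at several loci. Mir32 stood at 17.2 ± 1.43 CPM (SD, n = 2 for each). The median of all 9 genes of the list, Mir219b included, was 2602 CPM. The median was 33.0 CPM over the 496 genes tested, 101 CPM over the 395 detected genes and 0 CPM over all 2202 genes. The 9 genes of this list, the 4 genes above included, held 4.16% of counts in replicate 2 and 4.52% in replicate 1. Mir23b and Mir23a, its highest genes, are also on the astrocyte list, so this share does not belong to oligodendrocytes alone. Which cells the Mir138-1 and Mir138-2 counts came from was not tested.

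Within that list the genes did not move together between libraries. Of 8 genes tested, 3 were called higher in replicate 2 (Mir219a-2, Mir338 and Mir219a-1, the last of which reached the filter only through that library), 4 were higher in replicate 1 (Mir138-1, Mir138-2, Mir23a and Mir23b), and Mir32 did not pass the test. The median log2 ratio of the list was -0.31, beside 0.0058 over all genes tested. Of all 496 genes tested, 25.8% were called higher in replicate 2 and 30.6% higher in replicate 1. Mir23b had a log2 ratio of -0.48 and Mir138-1 one of -0.23. With library totals Mir138-1 was at -0.0053 and was not called, and the other 3 genes remained higher in replicate 1.

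Genes known from oligodendrocyte precursors had a list median of 54.1 CPM over all 9 genes. This stands beside 33.0 CPM over all genes tested and 101 CPM over detected genes. Mir17, of the miR-17~92 cluster that supports precursor proliferation, led at 853 ± 6.83 CPM, followed by Mir92-1 at 424 ± 219 CPM and Mir20a at 222 ± 7.81 CPM. Mir18 stood at 54.1 ± 0.135 CPM, while Mir19a and Mir19b-1 had at most 4 counts per library. The miR-9 genes were at 71.1 ± 20.8 CPM for Mir9-3, 10.1 ± 4.53 CPM for Mir9-1 and 1.92 ± 0.370 CPM for Mir9-2 (SD, n = 2 for each). Both mature sequences of each miR-9 gene are held by the other Mir9 hairpins, and 1 mature sequence each of Mir19b-1 and Mir92-1 is held by Mir19b-2 and Mir92-2. Reads of these sequences placed at several loci are outside the counts, so the levels of this list can be too low.

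Of 7 precursor genes tested, Mir92-1 was higher in replicate 2 (log2 ratio 0.88), while Mir9-1 (-1.18), Mir9-3 (-0.83) and Mir17 (-0.24) were higher in replicate 1, and 3 did not pass the test. With library totals Mir17 was at -0.016 and was not called. After TMM, 56.5% of all 496 genes tested were called, 25.8% as higher in replicate 2 and 30.6% as higher in replicate 1.

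**Figure D5:**
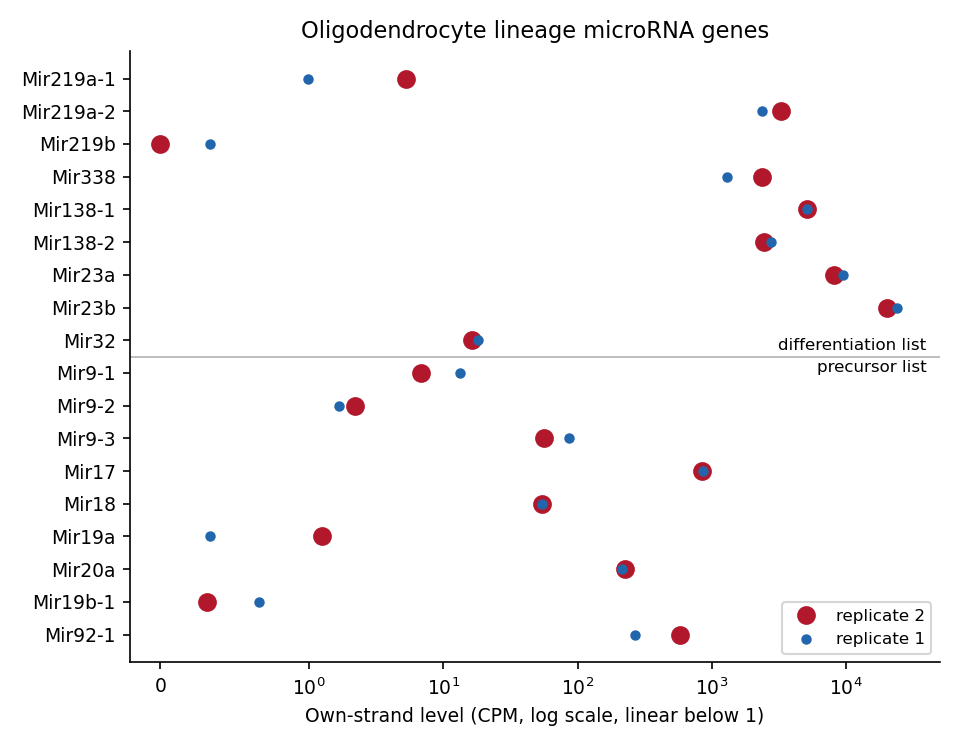
Own-strand level (CPM, log scale, linear below 1) of 9 genes of the oligodendrocyte differentiation list and 9 of the precursor list in replicate 2 (red) and replicate 1 (blue). Mir219a-2, Mir338, Mir138 and Mir23 genes lie above 1000 CPM in both libraries, and no precursor gene does.

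Marker genes of other cell types also differed between the libraries, and their part in the differences of Mir338 and Mir219a-2 was not tested. As a background, 25.8% of all 496 genes tested were called higher in replicate 2 and 30.6% higher in replicate 1. With library totals these were 180 and 102 genes. The neuron list, led by Mir139, held 20.0% of counts in replicate 2 and 21.2% in replicate 1, with 3 of 7 tested genes higher in replicate 2 and 3 in replicate 1. Mir139 alone had 141898 CPM in replicate 2 and 155820 CPM in replicate 1. The astrocyte list, led by Mir23b, held 3.54% and 4.05%, with 1 of 5 genes higher in replicate 2 and 3 in replicate 1. It shares Mir23b and Mir23a with the differentiation list. The microglia and immune list, led by Mir150, held 0.240% and 0.284%, with 5 of 5 genes higher in replicate 1 after TMM and 3 of 5 with library totals. The endothelial and mural list, led by Mir126a, held 1.26% and 1.20%, with 1 of 3 genes higher in replicate 2 and 2 in replicate 1. Red blood cell genes, led by Mir451a, held 0.00754% and 0.00510%, with 1 of 3 higher in replicate 2. With library totals, 3 neuron genes were higher in replicate 2 and 2 in replicate 1, and 2 astrocyte genes were higher in replicate 2 and 3 in replicate 1. The counts of the endothelial and mural list and of the red blood cell list did not change. No marker of these lists was at 0 in both libraries. On the neuron list, counts in replicates 2 and 1 were 9 and 3 for Mir124a-1, 3 and 0 for Mir124a-2 and 4 and 5 for Mir124a-3. These lie near the floor. Copies of the mature sequences of the Mir124a genes, Mir143, Mir145a, Mir150 and Mir486 could not be looked up. Mir128-1 and Mir128-2 share 1 mature sequence, and Mir24-1 shares 1 with Mir24-2. Reads placed at several loci may therefore be missing from the counts of all these genes.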

How the data were processed

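MicroRNA libraries of 2 mouse cortex samples were analysed from the read counts per microRNA gene that the authors deposited, without normalization. Per the file headers of the deposited descriptions, the build is mm10 with annotation M21. Neither an aligner nor a counter is named (not given in the sources used here). Without a header in the tables, the roles of the either, own and opposite strand columns were read from the values. The 4 classes of reads not assigned to a gene (65.5% of reads in replicate 2, 64.5% in replicate 1) were left out of library sizes.

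All identifiers matched GENCODE M21. Sequences came from RefSeq on GRCm38.p6, where the 4 genes and both opposite-strand partners matched at the M21 positions. Exact copies of the mature sequences were looked for among 1005 RefSeq hairpins and 141767 M21 transcripts, and not outside them. The transcripts added 1 copy, that of miR-219a-1-3p in Gm26940, which overlaps Mir219a-1. The 4 genes and the lists were chosen with earlier results of these data known.

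Libraries were compared by a two-sided exact binomial test given TMM sizes (edgeR 4.0.16), over genes reaching 10 counts in total, with Benjamini-Hochberg adjustment and calls at adjusted p under 0.05. Genes were named if they were among the 4, overlapped them on the opposite strand, held them, were among the 5 nearest in level, were on the oligodendrocyte lists, or led another list. Genes next to Mir219a-2 and Mir338 in rank, and the genes Urm1 and Ring1 close to Mir219a-2 and Mir219a-1, were also named. The Mir124a genes were named in addition, for their low counts. Other marker genes were named where a mature sequence was held by another hairpin or could not be looked up. Hairpins that hold a copy of a list gene's mature sequence were named too. The test was checked on counts simulated with counting noise alone and tested with library totals, where 1.64% of unchanged genes were called. The spread between the real libraries was not simulated, so this check does not cover it. Alternatives were the either-strand column, all reads as library size, library totals, DESeq2 1.42.0 size factors, other count minimums, another pseudocount, and leaving out each replicate. PCR copies are not independent molecules, so intervals and floors reflect counting error alone. Python 3.11.15, scipy 1.17.1 and R 4.3.3 were used.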

Additional observations from a re-analysis of the deposited data

How the results depend on the processing

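The choice of strand column moved the levels most. In the either-strand column Mir219a-2 averaged 0.167 CPM and Mir338 0 CPM, since reads over both hairpins of a pair are assigned to none. With all reads as library size, Mir219a-2 averaged 984 CPM and Mir338 637 CPM. Leaving out each replicate in turn gave 2371 to 3257 CPM for Mir219a-2, 1289 to 2364 CPM for Mir338, 0.994 to 5.30 CPM for Mir219a-1, 0 to 0.331 CPM for Mir219b and 0.46 to 0.88 for the log2 ratio of Mir219a-2 over Mir338. The log2 ratio between libraries ranged over the scalings and filters from 0.23 to 0.46 for Mir219a-2 and 0.65 to 0.87 for Mir338, and both passed the test throughout. For Mir219a-1, which reached the filter only through replicate 2, it was 2.18 to 2.41. In the either-strand column these genes, and the ratio of Mir219a-2 over Mir338, gave no value to compare. Between 259 and 282 genes were called under the alternatives, against 280. Of the 5 genes nearest in level, 5 stayed for each gene with 5 CPM added, and in the either-strand column 1 stayed for Mir219a-2 and 0 for Mir338. No paired analysis was possible because the libraries form a single group. Depth limits Mir219a-1 and the plus strand hairpins, which lie near the floor.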
